A study of Mus musculus with 12 samples.

Results

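The effect of a cholestatic, porphyrin-raising diet on open chromatin was examined in hepatocytes that lacked Fbxl5. The comparison took 6 of the 12 libraries of the study: 3 from Fbxl5-deleted mice on DDC against 3 from Fbxl5-deleted mice on the standard diet. Each library was 1 deposited list of ATAC-seq peaks, and the 12 lists together gave 138505 regions that could be tested. By the rank of peaks within each library, 3359 regions were higher on DDC in these cells and 1028 were lower. With strong peaks only (fold enrichment of at least 5) the counts were 1372 and 541. Of 196 regions near YAP-TEAD genes 10 rose (5.1%), beside 2.43% of all tested regions. Near Hedgehog genes 3 of 89 fell (3.37%), beside 0.742%. In floxed controls, without the deletion, 8 of these 10 risers and 2 of these 3 fallers were also called in the same direction. Of all risers 65.2% were shared in this way, and of all fallers 46.0%. In the main fit 0 of 138505 regions passed a test for a difference between genotypes. This does not show that the genotypes respond alike. The comparison and the gene lists were chosen with earlier results of these data known. Of 33 lists, basement membrane genes had the highest share of risers (6.77%) and heme breakdown genes that of fallers (5.26%). When each Fbxl5-deleted library was left out in turn, 4 of 11 YAP-TEAD calls and 1 of 3 Hedgehog calls were kept every time. So were 4 of 16 basement membrane calls and 1 of 3 heme breakdown calls. Standard-diet libraries 1 and 3 stood apart. When both were left out, fewer regions were called, but all 3359 risers and all 1028 fallers kept their sign.

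ATAC-seq marks open chromatin by the insertion of sequencing adapters with a transposase. The mice of all 4 groups carried floxed Fbxl5 alleles (FBXL5F/F), and those of the 2 groups compared here also carried Alb-Cre, a Cre recombinase under the albumin promoter, so that deletion was directed to cells that use that promoter. Feeding lasted 2 weeks, with either the standard diet or 0.1% DDC, with 3 mice and 3 libraries in each group. The labels do not tie each library to a mouse, so p-values measure the spread between libraries. The floxed mice without Cre formed the other two groups, with the same diets. Hepatocytes were obtained by collagenase perfusion of the liver, which can leave other liver cells in the preparation. The labels give neither the age of the mice nor the part of Fbxl5 that was removed.

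FBXL5 is the iron-sensing subunit of a ubiquitin ligase that targets iron regulatory proteins for degradation, and its loss lets hepatocytes take up iron in excess. DDC inhibits ferrochelatase, the last enzyme of heme synthesis, so that porphyrins accumulate and plug small bile ducts. The liver then shows cholestasis, a ductular reaction and fibrosis, and signalling through TGF-beta, Notch, YAP and AP-1 is known to take part in that response.

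The lists held 261938, 151086 and 260515 peaks on the standard diet and 168961, 191700 and 170157 on DDC. Standard-diet libraries 1 and 3 stood apart through many weak peaks, since they held fewer strong peaks (fold enrichment 5 or more): 43981 and 53808, against 60191 in standard-diet library 2 and 61207 to 68211 on DDC. Fold enrichment is the authors' own value, the height of a peak over the background estimated within its library. Such strong peaks differed by 11593.7 per library (exact permutation test, two-sided, p = 0.1, the smallest possible with 3 against 3), and 4062.67 without standard-diet libraries 1 and 3. For all listed peaks it was -47573.7 (exact permutation test, p = 0.4), and 25853.3 without those libraries. The lists hold no read counts, so depth is known only through these numbers.

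**Figure D1:**
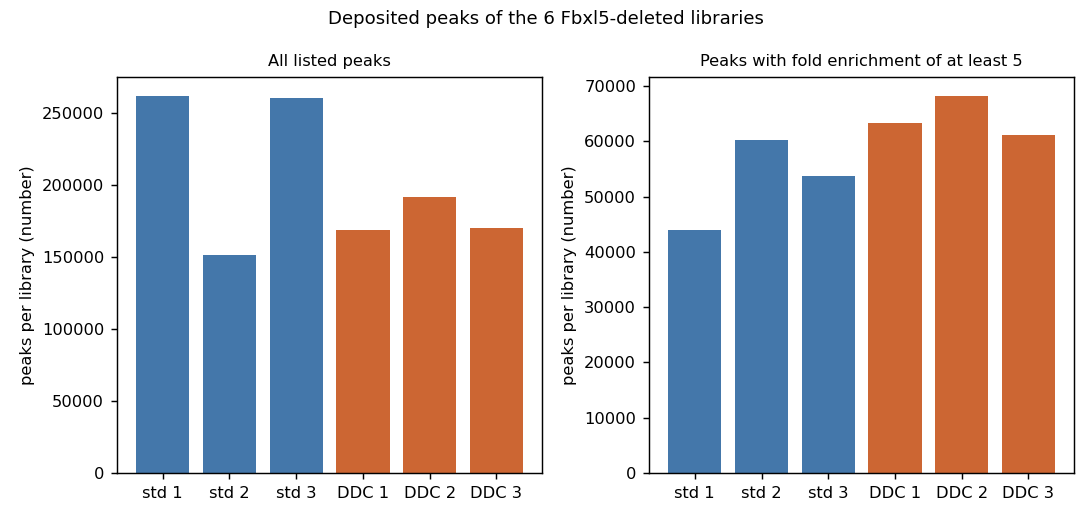
Bars give the number of peaks in each of the 6 Fbxl5-deleted libraries, for all listed peaks on the left and for strong peaks on the right. Standard-diet libraries 1 and 3 had the longest lists (261938 and 260515) and the fewest strong peaks (43981 and 53808).

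Because the lists differed in length, the strongest 137004 peaks of each library were merged into regions. The value given for each region is its within-library rank placed on the mean scale of log2 fold enrichment over the 12 libraries. From here on, listed means among these 137004 kept peaks. A region with no kept peak in a library took the lowest value, log2 1.27, whether the library's deposited list held a weaker or tied peak there or none. For standard-diet libraries 1 and 3 the limit fell among tied peaks, of which 22150 of 90195 and 7278 of 88019 were kept. Values therefore rank a region against others of its library, and differences below are DDC minus standard diet ± SE from limma, with n = 3 against 3. Where a region was absent from all 3 lists of a group the difference has no true size, and the numbers of lists that hold it are given instead. A region was called at a Benjamini-Hochberg adjusted p under 0.05 over all tested regions, and it is named by the protein-coding gene it lies in or, failing that, the nearest within 50 kb. In bulk hepatocytes, fewer cells with an open region and less opening per cell cannot be told apart.

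Marker genes of hepatocytes were listed in every library, 9 of 9, with summed values of 25.9 to 28.2 on the standard diet and 24.4 to 25.6 on DDC. Of the other cell types, 5 to 7 of 8 cholangiocyte, 6 to 7 of 8 stellate, 4 to 6 of 8 macrophage, 6 to 8 of 8 sinusoidal endothelial and 1 to 2 of 7 lymphocyte markers were listed. The cholangiocyte marker Krt19, the stellate marker Des, the macrophage markers Clec4f and Marco, and lymphocyte markers that include Cd8a, Ms4a1, Il7r and Ncr1 had no tested region. Summed values of the cholangiocyte markers were 19.1 to 20.1 on the standard diet and 18.1 to 19.9 on DDC, and those of the stellate markers 18.9 to 20.5 and 18.3 to 21.1. Macrophage sums were 13.5 to 15.7 and 14.2 to 14.9, sinusoidal endothelial sums 23.6 to 24.6 and 24.2 to 25.0, and lymphocyte sums 4.52 to 4.94 and 4.78 to 5.04. The 2 diets thus overlapped for every type except hepatocytes, whose sum was lower in each DDC library. The part of these markers in the results below was not tested.

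On DDC 3359 regions rose, 2.43% of those tested, and 1028 fell, 0.742%, together 3.17% (limma, adjusted p under 0.05). The groups did not overlap at 3331 of the risers and 1025 of the fallers, beside 10.1% of all tested regions that were higher and 8.19% that were lower in every DDC library. All risers were listed in 3 of 3 DDC libraries. On the standard diet 629 of them were in no list, 543 in 1, 647 in 2 and 1540 in all 3. All fallers were listed in 3 of 3 standard-diet libraries, and on DDC 150 were in no list, 145 in 1, 137 in 2 and 596 in 3. Rises were thus more numerous than falls. Of risers 45.8% were in all 6 lists and of fallers 58.0%, beside 47.6% of all tested regions. Of all 138505 tested regions, 18958 were in no standard-diet list, 23906 in 1, 23225 in 2 and 72416 in all 3. Of the 629 risers, 284 overlapped no deposited peak of a standard-diet library and the others overlapped a weaker one, 204 in library 1, 32 in library 2 and 206 in library 3. Of the 150 fallers, 74 overlapped no deposited DDC peak.

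The 1540 risers of all 6 lists had median ranks of 49910.5, 47324 and 49743.5 on the standard diet and of 14455.5, 12287.5 and 14137.5 on DDC, where rank 1 is the strongest peak. The 596 fallers of all 6 lists went the other way, from 19361, 19035 and 20931 to 51988, 51409 and 52232.5. With peaks of fold enrichment of at least 5 only, 1372 of 52906 regions rose (2.59%) and 541 fell (1.02%), together 3.62%. Of the risers 2502 had a region among these strong peaks, of which 1265 were called. Of the fallers 683 had one, and 379 were called. Without standard-diet libraries 1 and 3 the remaining standard-diet library is assumed to vary like the other groups, and 802 regions rose (0.579%) and 380 fell (0.274%), together 0.853%. In that fit all 3359 risers and all 1028 fallers kept their sign. The median difference of these risers was 1.07, beside 1.13 in the main fit. That of these fallers was -0.975, beside -0.980. With so few standard-diet libraries left, a call lost in that fit does not by itself show a smaller difference.

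Few risers lay near transcription starts. Of risers with a start site on their chromosome in the RefSeq promoter table, 2.60% were within 1 kb of a transcription start, of fallers 6.98% and of all tested regions 10.7%. Median distances to the nearest start were 45677 bp for risers, 40164 bp for fallers and 29559 bp for all tested regions. Within the span of a gene lay 50.2% of risers, 56.1% of fallers and 61.4% of tested regions. Exon and intron positions were not at hand.

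**Figure D2:**
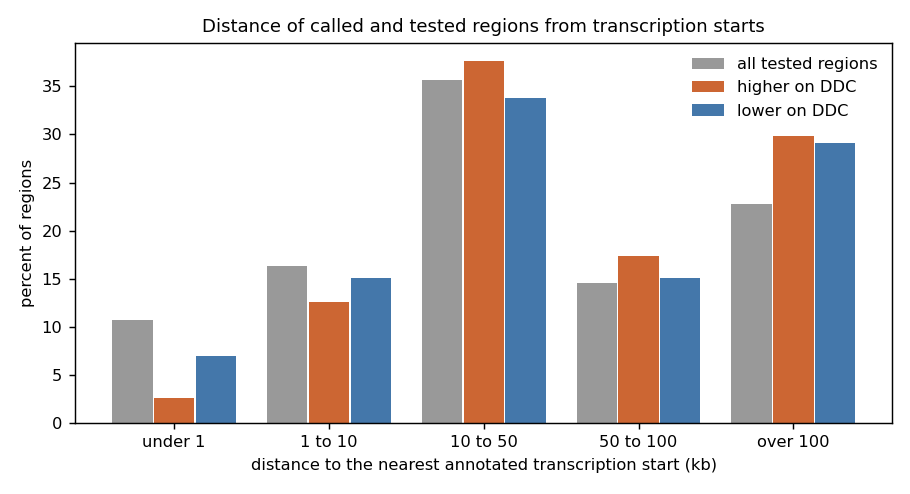
Bars give the percentage of all tested regions, of regions higher on DDC and of regions lower on DDC in 5 classes of distance (kb) to the nearest annotated transcription start. Under 1 kb lay 10.7% of tested regions, 2.60% of risers and 6.98% of fallers, and over 100 kb 22.8%, 29.8% and 29.1%.

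Of 10237 tested regions that covered a promoter window, 250 bases before to 50 after the start, 55 rose and 52 fell. Both shares are below the 2.43% and 0.742% of all tested regions. The 3 rising promoters and the 1 falling promoter with the smallest adjusted p are printed, together with 2 falling ones that were chosen after their values were seen because they belong to heme scavenging and bile acid uptake. All windows are from RefSeq, GRCm38.p6 (the assembly of mm10), written 5′ to 3′ on the strand of the gene. Capitals mark matches, on either strand, to the AP-1 motif TGANTCA or the C/EBP motif TTGCNNAA. Arl14 encodes a small ARF-like GTPase (chr3:69222169-69222468, plus strand), Fblim1 a filamin-binding adaptor of cell adhesion (chr4:141606003-141606302, minus strand) and Sprr1a a cornified envelope protein of epithelia under stress (chr3:92485832-92486131, minus strand). Klf6 encodes an immediate early zinc finger factor (chr13:5861239-5861538, plus strand), Hpx the heme-binding plasma protein hemopexin (chr7:105600067-105600366, minus strand) and Slco1a1 an uptake transporter of bile acids and organic anions (chr6:141946913-141947212, minus strand).
Arl14: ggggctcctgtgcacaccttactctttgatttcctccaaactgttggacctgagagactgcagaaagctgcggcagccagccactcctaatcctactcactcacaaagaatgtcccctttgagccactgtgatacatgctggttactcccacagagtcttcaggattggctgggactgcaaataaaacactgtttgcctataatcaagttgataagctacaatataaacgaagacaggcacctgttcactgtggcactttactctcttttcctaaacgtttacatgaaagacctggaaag
Fblim1: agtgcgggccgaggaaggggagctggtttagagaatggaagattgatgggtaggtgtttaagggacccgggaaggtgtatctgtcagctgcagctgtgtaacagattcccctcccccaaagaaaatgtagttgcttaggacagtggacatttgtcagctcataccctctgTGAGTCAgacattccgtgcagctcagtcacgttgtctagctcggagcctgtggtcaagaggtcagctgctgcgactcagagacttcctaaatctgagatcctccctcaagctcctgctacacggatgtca
Sprr1a: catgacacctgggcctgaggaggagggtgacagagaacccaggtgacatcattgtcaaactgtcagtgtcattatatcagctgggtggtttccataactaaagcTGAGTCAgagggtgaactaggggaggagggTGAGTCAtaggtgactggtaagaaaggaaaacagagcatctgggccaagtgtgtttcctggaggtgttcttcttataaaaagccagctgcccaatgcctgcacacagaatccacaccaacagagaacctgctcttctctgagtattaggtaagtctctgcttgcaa
Klf6: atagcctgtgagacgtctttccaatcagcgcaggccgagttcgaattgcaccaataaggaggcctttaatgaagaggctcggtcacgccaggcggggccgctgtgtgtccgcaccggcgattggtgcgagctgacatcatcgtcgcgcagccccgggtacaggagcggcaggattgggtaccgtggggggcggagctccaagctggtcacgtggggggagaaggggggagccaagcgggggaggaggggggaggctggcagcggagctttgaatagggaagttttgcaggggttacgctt
Hpx: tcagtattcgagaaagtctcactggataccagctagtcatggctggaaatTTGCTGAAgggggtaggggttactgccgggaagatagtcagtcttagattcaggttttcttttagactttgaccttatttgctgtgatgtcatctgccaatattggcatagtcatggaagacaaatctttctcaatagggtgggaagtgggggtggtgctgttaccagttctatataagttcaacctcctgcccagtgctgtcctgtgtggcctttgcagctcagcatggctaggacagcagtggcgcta
Slco1a1: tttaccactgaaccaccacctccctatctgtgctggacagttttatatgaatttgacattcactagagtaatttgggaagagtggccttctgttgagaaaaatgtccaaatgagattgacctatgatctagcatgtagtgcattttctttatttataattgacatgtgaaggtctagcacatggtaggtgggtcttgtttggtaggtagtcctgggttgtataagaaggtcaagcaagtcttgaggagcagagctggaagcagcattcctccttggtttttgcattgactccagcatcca

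At the Arl14 promoter the region was listed in 3 of 3 DDC libraries (3.36, 2.70 and 3.32) and only in library 1 of the standard diet, at 1.43. Its rise was 1.81 ± 0.25 (adjusted p = 0.000371), and every DDC library was above every standard-diet library. The Fblim1 and Sprr1a promoters were in 3 of 3 DDC lists and 0 of 3 standard-diet lists. Their DDC values were 2.76, 3.29 and 2.97 at Fblim1 and 2.56, 3.19 and 2.89 at Sprr1a. The Fblim1 window holds 1 AP-1 match, 80 bases before the start, and the Sprr1a window holds 2 upstream of it. Without standard-diet libraries 1 and 3 the Sprr1a region was not called.

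At the Klf6 promoter all 3 standard-diet libraries were high, at 3.82, 3.87 and 3.92, and the DDC libraries lower, at 2.87, 2.42 and 3.03. The fall was by 1.10 ± 0.18 (adjusted p = 0.00207), with no overlap. The Hpx promoter had 3.68, 3.17 and 3.61 on the standard diet and 2.69, 2.45 and 2.71 on DDC, and fell by 0.87 ± 0.20 (adjusted p = 0.0161). The Slco1a1 promoter was in 3 of 3 standard-diet lists, at 2.21, 1.90 and 2.69, and in 0 of 3 DDC lists. These 3 calls were lost without standard-diet libraries 1 and 3. The call at Hpx was also lost without standard-diet library 1, standard-diet library 3 or DDC library 2 alone, and that at Slco1a1 without any of 5 libraries.

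The AP-1 motif TGANTCA was in 10 of the 55 promoter windows that rose (18.2%) and in 0 of the 52 that fell, beside 4.99% of the 10237 windows covered by tested regions and 6.99% of all 21263 RefSeq windows. The C/EBP motif TTGCNNAA was in 14.5% of windows that rose and 3.85% of those that fell, beside 8.74% of tested and 10.2% of all windows. The GC box GGGCGG was in 36.4% and 80.8%, beside 65.9% and 46.2%. An ETS motif, CCGGAAGT, was in no window that rose and in 9.62% of those that fell, beside 7.42% and 5.15%. The TEAD motif GGAATG was in 14.5%, 13.5%, 11.6% and 13.6%, in the same order. The antioxidant element TGACNNNGC was in 20%, 21.2%, 14.8% and 13.0%, and the E-box CACGTG in 7.27%, 13.5%, 10.2% and 7.84%. Both strands were searched, matches of different motifs may overlap, and a match describes the letters of the window only.

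A narrower set held the risers listed in all 6 libraries, without overlap between diets and also called among strong peaks. There were 1105 of them, and 368 fallers met the same conditions. The largest rise lay in Elmo1 (chr13:20432988-20433773, mm10), which encodes a scaffold of a Rac exchange factor. Its standard-diet values were 2.49, 1.63 and 1.63 and its DDC values 3.70, 4.35 and 4.47, a rise of 2.26 ± 0.24 (adjusted p = 5.23e-05). In ranks this was a move from 55512, 109387 and 110244 to 13593, 1710 and 918.

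A region 12366 bp from Phc3, a Polycomb subunit gene, had 1.43, 1.63 and 1.63 on the standard diet and 3.77, 3.63 and 3.59 on DDC. It rose by 2.10 ± 0.20, and within each diet its libraries lay close together. The region with the smallest adjusted p of the 12, 2.85e-06, lay 11516 bp from Wdfy2, of endosomal sorting. It had 2.88, 2.33 and 2.56 on the standard diet and 4.70, 4.44 and 4.70 on DDC, which placed it at ranks 180, 1064 and 179 there. Epb41l4a, a FERM domain protein gene, had 1.82, 2.79 and 1.94 against 4.44, 4.11 and 4.38. Abca5, of a lipid transporter family, had 2.21, 1.38 and 1.63 against 3.95, 3.72 and 3.59. The other 7 of these genes were Sorcs3, Ldc1, Kcnab1, Vsnl1, Eef1aknmt, Rpap3 and Erc2, with rises of 1.93 to 2.01. Among strong peaks alone the fitted rises were 1.41 in Elmo1, 0.90 near Phc3, 0.99 at Abca5 and 0.80 at Kcnab1, and 1.35 to 1.81 at the other 8. In Elmo1, near Phc3, at Abca5 and at Kcnab1 no standard-diet library kept a strong peak, so those rises have no true size. All 12 stayed called without any single Fbxl5-deleted library. Without standard-diet libraries 1 and 3 the rise was 2.55 in Elmo1 and 1.47 at Ldc1. Under 50% reciprocal overlap of peak and region, a peak that spanned less than 50% of its merged region was dropped. A library left with no peak there took the lowest value. With this setting, those of the 12 no longer called included Epb41l4a, Phc3, Sorcs3, Kcnab1 and Vsnl1. The rise under that setting was 0.72 at Kcnab1 but 3.34 near Wdfy2.

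**Figure D3:**
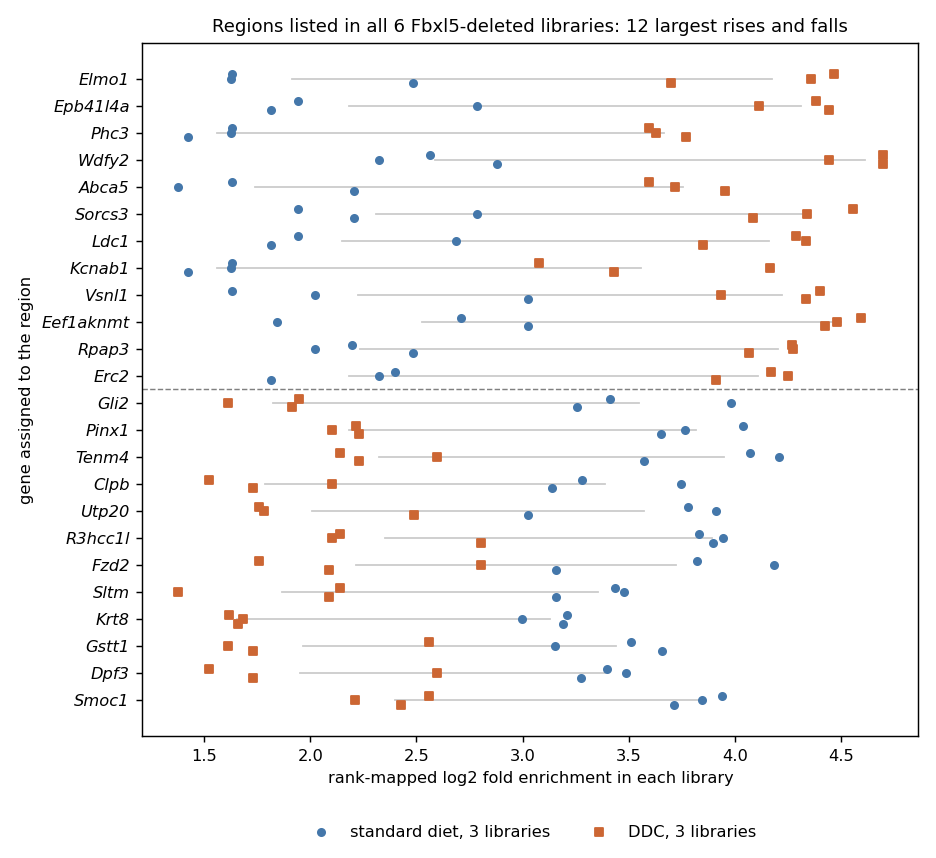
Each row is a region listed in all 6 Fbxl5-deleted libraries, named by its gene, with the rank-mapped log2 fold enrichment of the 3 standard-diet libraries (circles) and the 3 DDC libraries (squares) and a line between the group means. The 12 largest rises are above the dashed line and the 12 largest falls below it, and in no row do the diets overlap. Groups without overlap were a condition of the choice.

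The largest falls of this kind lay 21363 bp from Gli2, the main activating transcription factor of Hedgehog signalling, in Pinx1, which encodes a telomerase inhibitor, and in Tenm4, a teneurin adhesion gene. Near Gli2 (chr1:118811876-118812698) the standard-diet values were 3.26, 3.98 and 3.41 and the DDC values 1.91, 1.61 and 1.95. In Tenm4 (chr7:96235701-96236529) they were 3.57, 4.21 and 4.07 against 2.23, 2.60 and 2.14, a fall by 1.63 ± 0.19 (adjusted p = 0.000114). The ranks of the Tenm4 region went from 16978, 3253 and 5341 to 65805, 49940 and 70376.

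Krt8, a keratin of simple epithelia whose protein aggregates in hepatocytes under DDC, had a fall 807 bp from its transcription start (chr15:102002866-102003535). The values were 3.19, 2.99 and 3.21 against 1.66, 1.68 and 1.62, with a difference of -1.48 ± 0.23 (adjusted p = 0.000973). Near Gstt1, a theta-class glutathione transferase gene, they were 3.66, 3.15 and 3.51 against 1.73, 1.61 and 2.56 (-1.47 ± 0.29, adjusted p = 0.0064). Near Fzd2, a Wnt receptor gene, they were 3.16, 4.18 and 3.82 against 2.09, 2.80 and 1.76. The remaining 6 falls, between -1.60 and -1.43, lay in Clpb, a mitochondrial chaperone gene, Utp20, of ribosomal RNA processing, R3hcc1l, Sltm, Dpf3, a subunit of a chromatin remodeller, and Smoc1, a secreted matrix protein gene. Krt8, Gstt1 and Dpf3 were not called without standard-diet libraries 1 and 3, and Dpf3 was also lost without DDC library 3. Among strong peaks alone the fall was by 0.79 near Gli2, 0.37 at Krt8, 0.68 near Gstt1, 0.63 in Clpb, 0.81 in Utp20, 0.94 near Fzd2, 0.59 in Sltm and 0.63 in Dpf3, and the other 4 gave -1.19 to -1.06. No DDC library kept a strong peak near Gli2, at Krt8, near Gstt1 or in Tenm4, so those falls have no true size. Of all 1105 risers and 368 fallers of this kind, 335 and 27 were called without standard-diet libraries 1 and 3.

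Among regions in 3 of 3 DDC lists and 0 of 3 standard-diet lists, the strongest on DDC lay in Gsap, of the gamma-secretase pathway, at 3.41, 3.49 and 3.42. Those in Stard13, a GTPase-activating protein gene (3.15, 3.68 and 3.16), and Atg10, of autophagosome formation (2.99, 3.88 and 3.16), came next. A region 10240 bp from Akr1b8, an aldo-keto reductase gene, had 3.43, 3.18 and 3.29, and regions at Ttll1, a tubulin-modifying enzyme gene, and Dock8, an exchange factor gene, had 2.77 to 3.63. All 6 stayed called without standard-diet libraries 1 and 3. Each overlapped a weaker deposited peak in the standard-diet libraries, in 2 of 3 near Akr1b8 and at Ttll1 and in 1 of 3 at the other 4. In floxed controls on the standard diet the Akr1b8 region was in 3 of 3 lists and the Atg10 region in 0 of 3.

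In the opposite direction, regions in 3 of 3 standard-diet lists and 0 of 3 DDC lists were weaker. The highest lay near C1qtnf3, a secreted metabolic regulator (2.54, 2.53 and 2.80), in Ldlrad4, an inhibitor of TGF-beta signalling (2.34, 2.63 and 2.89), and in Clic4, a chloride channel family gene (2.63, 2.76 and 2.36). Dpp10, a potassium channel accessory gene, had 2.49, 2.97 and 2.19. The region near Dusp27 had 2.88, 2.46 and 2.19. The regions near C1qtnf3 and in Dpp10 overlapped no deposited DDC peak and the other 3 a weaker one in 1 of 3 libraries. Of these 5 regions those in Clic4 and Dpp10 were called without standard-diet libraries 1 and 3, and the other 3 were not.

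Several genes held more than 1 riser. Those named here were chosen for the most calls, which favours genes with many tested regions, and their counts are given as a description beside the 2.43% of all regions that rose and the 0.742% that fell. Egfr, which encodes the receptor of epidermal growth factor, had 5 risers and no faller among 55 tested regions. At the 3 of them listed in all 6 libraries the differences were 0.86, 1.12 and 1.19 log2. Glis3, a Krüppel-like transcription factor gene, had 5 of 25, and both Pde4d, a cyclic AMP phosphodiesterase gene, and Sox5, a transcription factor gene, had 5, of 103 and 90. Nav2 had 5 of 92 and Dst, a cytoskeletal linker gene, 5 of 54. None of these genes had a faller. The most fallers, 4 each, were at Cmah, of sialic acid modification (of 29 tested, beside 1 riser), Septin9, a cytoskeletal GTPase gene (of 55, beside 1 riser), and Grid1 (of 30). Ralgapa2, Chd7, a chromatin remodeller gene, and Dpyd, of pyrimidine breakdown, had 3 each, with 4, 0 and 2 risers. Once standard-diet libraries 1 and 3 were left out, 2 risers were called at Pde4d, 1 each at Nav2 and Dst and 0 at Sox5, and 1 faller each at Chd7 and Dpyd and 0 at Cmah, Septin9, Grid1 and Ralgapa2.

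In Glis3 the region at chr19:28636005-28636554 had 2.70, 2.57 and 3.43 on the standard diet and 4.29, 4.37 and 4.06 on DDC, and the one at chr19:28573653-28574019 had 2.49, 2.46 and 2.85 against 3.75, 3.36 and 3.93. Another, at chr19:28621610-28622419, was in 3 of 3 DDC lists and 0 of 3 standard-diet lists, with weaker deposited peaks in 2 of 3. In Egfr the riser with the smallest p, 14444 bp outside the gene, was also in 3 of 3 DDC lists and 0 of 3 standard-diet lists, with DDC values of 2.69, 3.02 and 2.77. All 5 risers of Glis3 were also called in floxed controls, and 1 of the 5 of Egfr. Without standard-diet libraries 1 and 3, 2 of the Glis3 risers and 1 of the Egfr risers were called.

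Regions were further grouped by 33 gene lists of liver biology, which were chosen with earlier results of these data known. In each list the region with the smallest p in each direction was named by rule, and the others named below were picked after their values were seen. Of the 135 list regions called, counted once for each list that holds them, 39 kept their call without any 1 Fbxl5-deleted library, and 19 were called without standard-diet libraries 1 and 3. Over all tested regions 2.43% rose, 0.742% fell and the median difference was 0.01 log2.

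**Figure D4:**
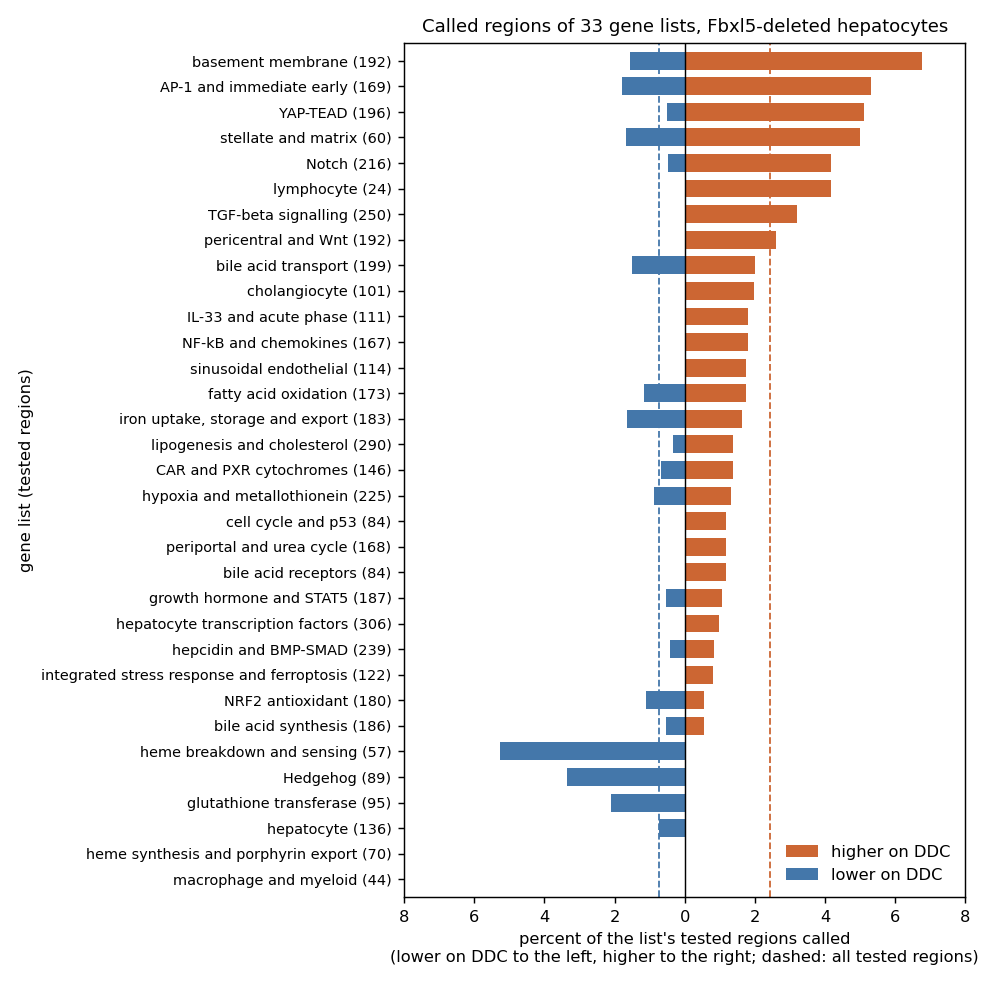
Bars give the percentage of each list's tested regions that rose (right) or fell (left) on DDC, with the number of tested regions in brackets and dashed lines at 2.43% and 0.742%, the shares over all tested regions. Basement membrane genes had the highest share of risers (6.77%, 13 of 192) of the 33 lists and heme breakdown genes the highest share of fallers (5.26%, 3 of 57).

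Among TGF-beta signalling genes 8 of 250 regions rose (3.2%) and 0 fell, with a median of 0.00. The risers lay at Smad3, the effector that carries the signal to the nucleus (3 regions), at the receptor gene Tgfbr2 (2), and at Ltbp1, Ski and the ligand gene Tgfb2. The region 35606 bp from Smad3 had 1.27, 1.84 and 1.27 on the standard diet, where only library 2 listed it, and 3.77, 3.85 and 3.82 on DDC. A region 47837 bp from Tgfbr2 had 3.03, 2.57 and 3.17 against 3.92, 4.23 and 4.12, a rise of 1.17 ± 0.17 (adjusted p = 0.000527), with no overlap. These and the other Tgfbr2 region were called without standard-diet libraries 1 and 3, the other 5 were not, and 2 of the 8 kept their call without any 1 Fbxl5-deleted library. The risers at Ltbp1 and Tgfb2, and 1 of Smad3, were in 0 of 3 standard-diet lists.

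YAP and its TEAD partners switch on growth and adhesion genes when the Hippo kinases, of which LATS2 is one, are inactive. Of 196 regions of this list 10 rose (5.1%) and 1 fell (0.51%), with a median of 0.06. A region in Lats2, 3873 bp from a start, had 3.22, 2.97 and 3.64 on the standard diet and 4.59, 4.46 and 4.49 on DDC (1.24 ± 0.15, adjusted p = 0.000109). The region near Amotl2, a YAP-binding angiomotin gene, had 1.82, 2.97 and 1.63 against 4.02, 4.17 and 3.95, so that standard-diet library 2 was the highest of its group and still below every DDC library. The target genes Ankrd1 (2 regions), Ccn1 and Axl, the coactivator gene Wwtr1 and the factor genes Tead4 and Tead1 (2 regions) also had risers. The 1 faller lay in Vgll4, a competitor of YAP, at 3.06, 3.48 and 2.75 against 2.31, 1.70 and 2.09. Without standard-diet libraries 1 and 3 the regions at Lats2, Amotl2, Ccn1 and 1 at Tead1 were called. Of the 11 calls 4 were kept without any 1 Fbxl5-deleted library, and that at Vgll4 was lost without any of 4 of them.

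Notch receptors are cleaved on contact with ligands, and the freed domain joins mastermind coactivators. Of 216 regions of Notch genes 9 rose (4.17%) and 1 fell (0.463%), with a median of 0.01. The ligand gene Dll1 had 2.70, 3.28 and 2.93 against 3.99, 4.12 and 4.18 at a region 10099 bp away (1.13 ± 0.17, adjusted p = 0.000852). The mastermind genes Maml1, Maml2 and Maml3 held 5 of the risers, with 2.42, 1.92 and 1.49 against 3.59, 3.35 and 3.31 in Maml1. The targets Hes1 (2 regions) and Nrarp held the others. Near Hes1 a region had 1.27, 2.33 and 1.63 against 3.49, 3.41 and 3.16 (1.61 ± 0.28, adjusted p = 0.00283). The faller lay in Maml1, 842 bp from its start, and its call was lost without any of 5 single libraries. Without standard-diet libraries 1 and 3 only the riser in Maml1 was called, and 5 of the 10 calls were kept without any 1 Fbxl5-deleted library.

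No Hedgehog region rose and 3 of 89 fell (3.37%). Beside Gli2, given above, a region in the ligand gene Shh had 2.79, 2.85 and 3.04 against 2.02, 1.85 and 1.87. Near Ptch1, the Hedgehog receptor gene, a weak region was in 3 of 3 standard-diet lists, at 1.82, 1.92 and 1.63, and in 0 of 3 DDC lists. The Shh call was lost without standard-diet library 3, DDC library 2 or DDC library 3, and the Ptch1 call without any of 5 libraries. Without standard-diet libraries 1 and 3, Gli2 and Ptch1 were called and Shh was not.

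Basement membrane genes, which encode the collagen IV, laminin and nidogen sheet beneath epithelia and vessels, had 13 risers (6.77%) and 3 fallers (1.56%) among 192 regions, with a median of 0.07. In Col4a6 a region had 1.27, 2.57 and 1.63 against 3.87, 3.63 and 3.47 (1.83 ± 0.28, adjusted p = 0.00093), but the difference was -0.12 under 50% reciprocal overlap of peak and region. A region 219 bp from a start of Lamb3, a laminin-332 chain gene, was in 3 of 3 DDC lists, at 2.88, 2.65 and 2.94, and in 0 of 3 standard-diet lists. In Lama2 a region had 2.41, 2.66 and 1.51 against 3.86, 3.55 and 3.34. Lamc1 had 3 risers, Col4a2 2, and Col4a1 and Nid1 1 each, and Lama2 and Lamb3 had 1 more riser each. Lama3, another laminin-332 chain gene, went the other way at 2 regions, with 3.86, 4.01 and 3.94 against 2.95, 2.92 and 3.13 at the first, and Lamb3 had 1 faller beside its risers. Of the 16 regions 4 kept their call without any 1 Fbxl5-deleted library, and only the Lamb3 riser near the start was called without standard-diet libraries 1 and 3.

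AP-1 dimers of FOS, JUN and ATF proteins and other immediate early factors answer to growth signals and stress. Of 169 regions of their genes 9 rose (5.33%) and 3 fell (1.78%), with a median of -0.05. The strongest riser, 34192 bp from Fosl2, had 2.83, 1.91 and 1.27 against 3.66, 3.85 and 3.37 (1.62 ± 0.28, adjusted p = 0.00269). Regions near Myc, Egr2 and Fos and 1 of 2 near Atf3 were in 3 of 3 DDC lists and 0 of 3 standard-diet lists, all weak on DDC, with no value above 2.79. Fallers lay inside Klf6, at the promoter printed above and 8250 bp from the start, and in Atf3, at 3.14, 3.16 and 3.12 against 2.40, 2.31 and 1.70. A further Klf6 region, 28766 bp outside the gene, rose. Only the Fosl2 riser of these 12 was called without standard-diet libraries 1 and 3, and only it and the Klf6 promoter kept their call without any 1 Fbxl5-deleted library.

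Bile acid transport genes had 4 risers (2.01%) and 3 fallers (1.51%) among 199 regions, with a median of -0.08. Atp8b1, the flippase that keeps the canalicular membrane resistant to bile salts, held 3 of the risers, all outside the gene. At 31218 bp from the gene the values were 1.27, 2.19 and 2.85 against 3.75, 4.17 and 3.93 (1.85 ± 0.28, adjusted p = 0.000906), and this call was kept without standard-diet libraries 1 and 3. The other 2 were in 0 of 3 standard-diet lists. A region inside Atp8b1 fell, from 4.06, 3.77 and 3.74 to 3.09, 3.42 and 3.20. Abcc4, a basolateral exporter that carries bile acids out to the blood, had 1 riser (1.27, 1.78 and 1.27 against 2.43, 2.78 and 2.26) and 1 faller (2.65, 3.09 and 3.04 against 1.60, 2.21 and 1.69). The third faller was the Slco1a1 promoter. These calls other than the first were lost without standard-diet libraries 1 and 3.

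Of bile acid receptor genes only S1pr2, a sphingosine phosphate receptor that conjugated bile acids can activate, had a riser (1 of 84 regions, 1.19%), and 0 fell. Bile acid synthesis genes had 1 riser and 1 faller among 186 regions, both in Scp2, a sterol carrier gene. The faller, 4064 bp from a start, was in 3 of 3 standard-diet lists and 1 of 3 DDC lists.

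No region of 70 near heme synthesis and porphyrin export genes was called in either direction, with a median of -0.04. This list includes Fech, which encodes ferrochelatase. Its region with the smallest p, 41295 bp from the porphyrin exporter gene Abcg2, had 3.63, 4.25 and 4.07 on the standard diet and 3.43, 3.31 and 3.59 on DDC. The difference was -0.54 ± 0.15 (adjusted p = 0.0579), without overlap but not called, and it was 0.25 with 50% reciprocal overlap. Heme breakdown and sensing genes had 3 fallers (5.26%) and 0 risers among 57 regions, with a median of -0.16. In Bach1, a heme-sensing repressor of antioxidant genes, a region had 3.56, 2.95 and 3.10 against 1.67, 2.04 and 1.27 (-1.55 ± 0.27, adjusted p = 0.00249), and another, 36667 bp outside, fell as well. The third was the Hpx promoter. None of the 3 was called without standard-diet libraries 1 and 3.

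Iron uptake, storage and export genes, whose products FBXL5 influences through the iron regulatory proteins, had 3 risers and 3 fallers among 183 regions (1.64% each), with a median of -0.07. In Cp, the ferroxidase gene, a region had 3.39, 3.04 and 3.29 against 2.40, 1.72 and 2.23. In Trf, which encodes transferrin, the carrier of iron in plasma, the values were 3.21, 2.99 and 3.15 against 2.19, 2.02 and 2.40. In Slc39a14, an importer of iron that is not bound to transferrin, they were 3.26, 3.01 and 3.37 against 2.42, 2.44 and 2.60. In all 3 genes every DDC library was below every standard-diet library.

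The risers lay outside their genes. The region 33199 bp from Fth1, the ferritin heavy chain gene, had 1.27, 2.19 and 1.27 against 3.53, 2.95 and 2.62. Near Steap4, a metalloreductase gene, a region had 2.49, 2.33 and 2.19 against 3.23, 4.09 and 2.89, and near Slc40a1, which encodes the iron exporter ferroportin, one listed in 1 of 3 standard-diet libraries had 1.91, 2.31 and 2.63 on DDC. Of the 6 calls that in Cp was kept without any 1 Fbxl5-deleted library, that in Fth1 was lost without DDC library 1, that in Steap4 without standard-diet library 3 or DDC library 2, and the other 3 without any of 4 or 5 libraries. None was called without standard-diet libraries 1 and 3.

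Hepcidin is induced through BMP receptors and SMAD proteins. Of 239 regions of that list 2 rose (0.837%) and 1 fell (0.418%). A region 15340 bp from Smad1 had 2.21, 2.79 and 1.94 against 3.49, 3.44 and 3.70 (1.23 ± 0.21, adjusted p = 0.0027), and one in the ligand gene Bmp6 was in 3 of 3 DDC lists and 0 of 3 standard-diet lists. The faller lay 17944 bp from Atoh8, a helix-loop-helix factor gene, at 3.88, 4.00 and 4.11 against 3.44, 3.36 and 3.52. All 3 calls were lost without standard-diet libraries 1 and 3.

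Antioxidant genes under NRF2 had 1 riser and 2 fallers among 180 regions, and glutathione transferase genes 0 and 2 among 95 (2.11% fell), with medians of -0.09 and -0.11. The riser lay 6081 bp from Prdx1, a peroxiredoxin gene, at 3.86, 3.68 and 3.81 against 4.42, 4.27 and 4.23. The fallers lay near Cat, the catalase gene (3.10, 2.38 and 3.04 against 1.27, 1.27 and 2.06), in Me1, a source of NADPH, and near Gstp1 and Gstt1. Near Gstp1 the values were 4.33, 3.98 and 3.86 against 3.00, 3.46 and 2.54. Gstt1 and Gstp1 belong to clusters of similar copies, and no source used here says how reads from such copies were placed. Each of these calls was lost without standard-diet libraries 1 and 3.

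Hepatocyte transcription factor genes had 3 risers among 306 regions (0.98%) and 0 fallers, with a median of -0.07. In Nr5a2, which regulates bile acid synthesis, a region had 3.61, 3.83 and 3.14 against 4.41, 4.24 and 4.32. Near Prox1 and Rxra the values were 2.49, 1.63 and 1.35 against 2.99, 2.60 and 3.87, and 2.54, 2.50 and 2.63 against 3.27, 3.39 and 3.27. Of 136 regions of hepatocyte product genes 0 rose and 1 fell (0.735%), near the fibrinogen gene Fgb, with a median of -0.10. None of these 4 calls was kept without standard-diet libraries 1 and 3, and that in Nr5a2 was the 1 kept without any 1 Fbxl5-deleted library.

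Pericentral genes, which Wnt signals from the central vein sustain, had 5 risers (2.6%) and 0 fallers among 192 regions, a share near that of all regions. In Znrf3, a ubiquitin ligase gene of Wnt feedback, a region had 3.48, 3.13 and 2.97 against 4.41, 4.09 and 4.21, and 860 bp from Lect2 the values were 2.39, 2.26 and 2.94 against 3.38, 3.59 and 3.35. Both were called without standard-diet libraries 1 and 3, whereas the risers at Axin2 and Slc1a2 and the second in Znrf3 were not. Periportal genes had 2 risers and 0 fallers among 168 regions. One lay 9703 bp from Igf1, a hormone gene of the growth hormone axis, with 3.03, 3.28 and 3.27 against 4.31, 4.26 and 4.12 (1.04 ± 0.14, adjusted p = 0.000424), and was also called without standard-diet libraries 1 and 3. Growth hormone and STAT5 genes had 2 risers (1.07%) and 1 faller (0.535%) among 187 regions, both shares below those of all tested regions. In Cux2, a factor gene with female-biased use in liver, 1 region fell (2.59, 3.32 and 2.34 against 1.39, 1.73 and 1.38) and a region near it rose. The faller was called without standard-diet libraries 1 and 3 but lost without standard-diet library 2, DDC library 1 or DDC library 3.

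Fatty acid oxidation genes had 3 risers and 2 fallers among 173 regions, lipogenesis and cholesterol genes 4 and 1 among 290, and cytochromes under CAR and PXR 2 and 1 among 146. Around Ppargc1a, a coactivator of mitochondrial genes, a region inside fell (3.10, 3.38 and 3.17 against 2.09, 2.60 and 1.95, but a difference of -0.03 with 50% reciprocal overlap) and one 13856 bp outside rose (2.21, 2.46 and 3.07 against 3.30, 3.85 and 4.04). Near Ehhadh, of peroxisomal oxidation, the values were 3.48, 3.05 and 2.71 against 2.09, 1.94 and 1.52. Insig2, a brake on cholesterol synthesis, had a riser 27912 bp away. A region 915 bp from the start of Cyp2b9 had 2.09, 2.02 and 1.27 against 3.08, 3.04 and 3.26 (1.34 ± 0.25, adjusted p = 0.00412). Cyp2b9 and its neighbours are similar copies, so that reads may be shared. None of these calls was kept without standard-diet libraries 1 and 3.

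In NF-kB and chemokine genes 3 of 167 regions rose (1.8%) and 0 fell, with 2 of the risers near Tnfaip3, an inhibitor of NF-kB, at 1.82, 1.84 and 1.27 against 2.81, 3.16 and 3.32 for the region 19162 bp away. The third lay 63 bp from Tnf. In the list of IL-33 and acute phase genes 2 of 111 rose (1.8%) and 0 fell. Near the alarmin gene Il33 the values were 2.21, 2.33 and 1.27 against 3.95, 4.54 and 4.14, and near Il6st, the shared receptor subunit of IL-6 cytokines, a region was in 3 of 3 DDC lists and 0 of 3 standard-diet lists. Cell cycle and p53 genes had 1 riser among 84 regions, near the cyclin E1 gene Ccne1, and integrated stress response and ferroptosis genes 1 among 122, near Acsl4, which both were in 0 of 3 standard-diet lists. Hypoxia and metallothionein genes had 3 risers and 2 fallers among 225 regions. The zinc exporter gene Slc30a1 had 1 of each, with 3.40, 3.49 and 3.53 against 2.65, 2.66 and 2.46 at the faller. Of all these only the Il33 region was called without standard-diet libraries 1 and 3.

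The lists of genes that mark other liver cells held 24 to 114 tested regions each. Stellate and matrix genes had 3 risers (5%) and 1 faller (1.67%) among 60 regions, all in Reln, a secreted glycoprotein gene of stellate cells. The faller covers the Reln promoter, at 3.83, 3.70 and 3.47 against 3.12, 2.83 and 3.00, but its difference was 0.90 with 50% reciprocal overlap. Cholangiocyte genes had 2 risers among 101 regions (1.98%), one of them near Cldn4, and sinusoidal endothelial genes 2 among 114 (1.75%), in Fcgr2b and near Gata4, with 0 fallers in both lists. Lymphocyte genes had 1 riser among 24 (4.17%), in Ets1. With so few regions these shares rest on 1 to 3 risers each, beside 2.43% of all tested regions. No region of 44 near macrophage and myeloid genes was called. The one with the smallest p, in Csf1r, had 1.27, 1.75 and 1.77 against 2.32, 2.41 and 2.67 (0.87 ± 0.25, adjusted p = 0.0592). None of these calls was kept without standard-diet libraries 1 and 3.

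The same diet was compared in floxed controls, whose 6 libraries are separate from those above. There 6462 regions rose (4.67%) and 3261 fell (2.35%), together 7.02%. Of the 3359 risers of Fbxl5-deleted mice 2191 were also risers of floxed controls, which is 65.2% of the former and 33.9% of the latter. Of the 1028 fallers 473 were shared, 46.0% and 14.5%. Among list risers 8 of 10 were shared for YAP-TEAD, 10 of 13 for basement membrane and 6 of 9 for AP-1 genes. For Notch genes these were 5 of 9 and for TGF-beta genes 5 of 8. Of the Hedgehog fallers 2 of 3 were shared, and of the heme breakdown fallers 2 of 3. No region was called in opposite directions, and 3254 of the risers and 977 of the fallers had the same sign in floxed controls, with median differences there of 1.04 and -0.72.

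A difference of the diet effects between genotypes was tested directly at each region, and 0 of 138505 passed (limma, 0.0%). At an unadjusted p under 0.05 there were 8124 (5.87%), and the smallest adjusted p was 0.791. With 50% reciprocal overlap, where narrower peaks count as absent, 74 regions passed, so the count depends on how peaks are matched to regions. The region with the smallest p, 30883 bp from Aass, of lysine breakdown, had 1.27, 1.84 and 1.63 on the standard diet and 2.37, 2.24 and 2.29 on DDC in Fbxl5-deleted mice (0.72 ± 0.25, adjusted p = 0.125). In floxed controls it fell by 1.40 ± 0.25, and the difference between genotypes was 2.12 ± 0.35 (adjusted p = 0.791). A count of 0 does not show that the genotypes respond alike.

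**Figure D5:**
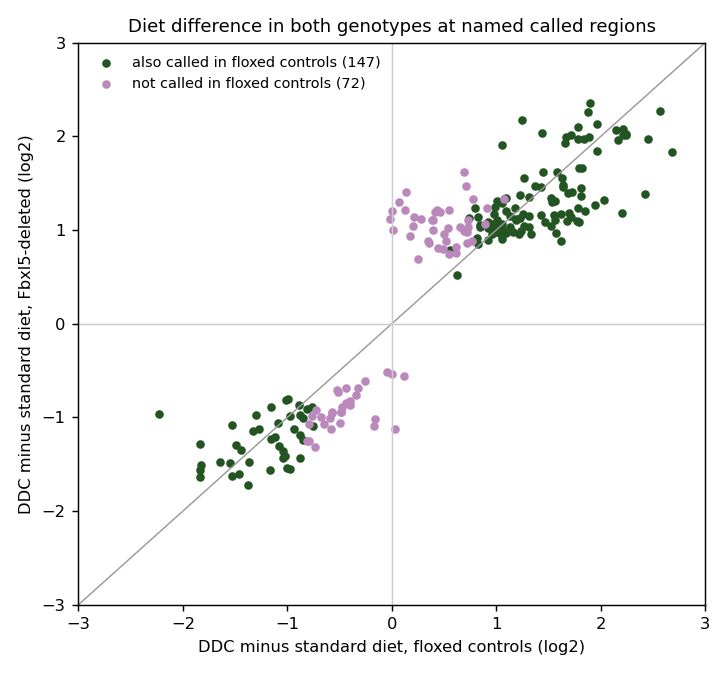
Each point is 1 of the 219 called regions named by the selection rules or belonging to the gene lists, with its diet difference (log2) in floxed controls on the x axis and in Fbxl5-deleted mice on the y axis, and the line of equal differences. Of these, 147 were also called in floxed controls (dark points) and 215 had the same sign. The points were chosen by their call on the y axis.

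At Fbxl5 itself none of 4 tested regions was called. One region inside the gene (chr5:43781400-43782725) had 3.63, 3.11 and 3.47 on the standard diet and 3.14, 3.14 and 3.14 on DDC. Its difference of -0.27 ± 0.19 (adjusted p = 0.482) was 0.025 without standard-diet libraries 1 and 3. Another inside it (chr5:43745212-43745590) had 1.27, 2.02 and 2.19 against 2.09, 2.10 and 1.95, a difference of 0.22 ± 0.31 that was -0.061 without standard-diet library 1, and the 2 outside the gene differed by 0.25 ± 0.29 and -0.50 ± 0.31. As the deleted part is not known here, these regions do not check the deletion.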

How the data were processed

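ATAC-seq peak lists of 12 mouse hepatocyte libraries were used, 6 of them for the main comparison. Peaks were called per library, and the submitters' processing notes name MACS2, Bowtie2, fastp, Picard, SAMtools, deepTools and bedtools, without versions, and build mm10. No source used here states a read shift for the transposase. The deposited values are a fold enrichment (a ratio over local background), a −log10 p and a −log10 q for each summit, and the lists reach down to a −log10 p that stands for 0.05. Lines with equal coordinates were joined, and chromosomes 1 to 19 and X kept. The strongest 137004 peaks of each library by the authors' fold enrichment were ranked, with ties averaged, and merged where they overlapped by 1 bp or more into 292589 regions. The 138505 regions listed in at least 3 of the 12 libraries were tested. Ranks were placed on the mean scale of log2 of the deposited fold enrichment, and a region with no peak among those kept in a library took the lowest value, 1.27.

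Differences were fitted with limma 3.58.1 (R 4.3.3; trend and robust settings) in 1 model over the 4 groups of 3 libraries, with Benjamini-Hochberg adjustment over all tested regions, and the scripts were tested on simulated data. The labels give 3 mice per group, and differences of single library values were tested by exact permutation, two-sided. The rest used scipy 1.17.1, pandas 2.3.3, numpy 2.4.6 and matplotlib 3.10.9 in Python 3.11.15. A region was given to the shortest protein-coding gene it overlaps, or to the nearest within 50 kb. It counts as a promoter where it covers at least 150 bp of the RefSeq window of 250 bases before to 50 after a start. Named regions were the 12 largest rises and falls among regions of all 6 lists, the 6 strongest of those absent from 1 diet in each direction, the 6 genes with most calls in each direction, the smallest p of each gene list in each direction and the 2 smallest p of the difference between genotypes. A few regions that these rules name are not reported here. The comparison and the gene lists were chosen with earlier results of these data known. Alternatives included other peak thresholds, orders, overlaps and filters, and leaving out libraries.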

Additional observations from a re-analysis of the deposited data

How the results depend on the processing

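Against 3359 rises and 1028 falls, counts were 1372 and 541 with peaks of fold enrichment of at least 5, 1619 and 267 with no minimum number of libraries, 1085 and 241 with 50% reciprocal overlap, 1449 and 263 in a fit of the 6 Fbxl5-deleted libraries only, and 1660 and 469 with the number of listed peaks as covariate. They were 802 and 380 without standard-diet libraries 1 and 3, and 268 and 205 when strong peaks were also required, an alternative chosen after the data were seen. Ordering peaks by −log10 p gave 1873 falls. Leaving out 1 library gave 1619 to 3136 rises and 450 to 878 falls. The cause of these changes was not tested. The difference between genotypes gave 74 regions with 50% reciprocal overlap and 0 under the other alternatives run. The difference in listed peaks per library turned to 25853.3 without standard-diet libraries 1 and 3, and ranged from -84287.2 to -28861.2 with 1 library left out.

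With 50% reciprocal overlap 301 named regions had a counterpart. Of these, 216 kept their sign but were no longer called, 75 were unchanged in call and 9 changed sign. Libraries whose peaks were too narrow for this setting took the lowest value, so a changed sign need not be a change of signal. The 9 went to 0.90 at the Reln promoter, 0.25 near Abcg2, -0.12 in Col4a6 and 0.15 near Ralgapa2. At promoters they were 1.01 at Arpc2, 0.40 at Cul3, 0.34 at Zfp687, 0.48 at Armc7 and 0.38 at Atp7a. At Fbxl5 the region chr5:43745212-43745590 gave -0.061 without standard-diet library 1, and chr5:43781400-43782725 gave 0.025 without standard-diet libraries 1 and 3, with or without the limit to strong peaks. With the replicate number as a block 3248 regions rose, 916 fell and 0 differed between genotypes. Same-numbered libraries correlated by -0.024 to 0.056 in their deviations from group means, and no label ties the numbers to a litter or day, so they do not pair the libraries. With no read counts deposited in these lists, a region with no kept peak may lie below the limit of 137004 peaks or below the caller's own.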

Other observations

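Other promoter regions, picked after their values were seen, add to those printed above. Among the risers Scel, which encodes the cornified envelope protein sciellin, had 3.16, 4.06 and 3.94 on the standard diet and 4.61, 4.46 and 4.63 on DDC. Plaur, the urokinase receptor gene, was in 2 of 3 standard-diet lists and had 2.87, 2.66 and 2.75 on DDC (1.17 ± 0.24, limma adjusted p = 0.00949). Itgb8, an integrin gene whose product releases active TGF-beta, was in 1 of 3 standard-diet lists, at 2.56, and had 3.59, 2.80 and 3.44 on DDC. Of these only Itgb8 was called without standard-diet libraries 1 and 3, and its call was lost without DDC library 1. The Scel call was lost without any of 4 Fbxl5-deleted libraries.

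Among the fallers were strong promoters in all 6 lists. Phc2, a Polycomb subunit gene, had 4.28, 3.99 and 4.16 on the standard diet and 3.48, 3.27 and 3.55 on DDC (-0.71 ± 0.14, limma adjusted p = 0.00558). Gas6, the ligand of the AXL receptor, had 4.03, 3.76 and 3.77 against 2.97, 2.93 and 3.26. Sptan1, a spectrin gene, had 4.18, 4.00 and 4.22 against 3.60, 3.43 and 3.40. The diets did not overlap at these 3 promoters, and none was called without standard-diet libraries 1 and 3.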
